A study of Mus musculus with 16 samples.

Results

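The levels of 10 genes of the defense against oxidative stress, namely Nfe2l2, Gclc, Gclm, Txnrd1, Srxn1, Nqo1, Hmox1, Sod2, Cat and Gpx1, were described in mouse gastrocnemius muscle. The genes were listed by name for their known roles, with earlier results of these data known, and they are 10 of the 35415 genes in the tables. All 10 passed the filter on low counts that left 14749 genes for testing. The values compared are counts of reads per gene and FPKM, which are counts scaled to gene length (per kilobase) and to the library total.

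RNA came from wild-type male BALB/c mice, bought at 8 weeks of age, in 4 groups with 4 sequenced mice each out of 12 mice per group. The C group (control) had no tumor and no training, and the E group (exercise) had no tumor and was trained. The T group carried tumors of CT26, a mouse colon carcinoma cell line from the BALB/c strain, and the TE group received CT26 cells and was trained. The trained mice ran on a treadmill on 6 days of each week for 4 weeks, at a speed of 14 m/min and for 60 min on each day, from the day after the cells were given, and untrained mice were placed on a stationary treadmill. CT26 cells were injected under the skin of the left dorsolateral hind limb, and C and E mice received saline at the same site. The sources used here do not give which leg the sequenced muscle came from, nor whether each sequenced TE mouse formed a tumor. Such a transplanted tumor grows from a single cell line over weeks and does not model a tumor that arises in the colon.

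Each library held between 35628211 and 37635741 counts in all, and a count of 3 was worth 0.0797 to 0.0842 CPM (counts divided by the library total and scaled like FPKM, without gene length). The marker sums given here and below are in CPM by the library total after TMM scaling, edgeR's correction for composition. The summed level of 12 muscle markers ranged from 124703 to 152104 CPM, and that of 8 epithelial markers ranged from 2.54 to 7.61 CPM, with Cldn4 at 0 in all 16 libraries. The summed level of 10 erythroid genes was 225 to 330 CPM in C, 241 to 350 CPM in E, 475 to 528 CPM in T and 558 to 789 CPM in TE. The summed level of 14 neutrophil genes was 2.28 to 17.0 CPM in C, 2.78 to 6.91 CPM in E, 11.3 to 55.6 CPM in T and 14.4 to 28.3 CPM in TE, with Elane at 0 in all libraries. For 13 lymphocyte and lymph node genes the fourth TE library had 154 CPM, while the TE median was 8.07 CPM. Without that library, too, 0 of the 10 genes were called in each contrast it enters. These are bulk samples, in which fewer cells of a type and less RNA per cell cannot be told apart.

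Nfe2l2 encodes NRF2, a transcription factor that is held in the cytosol and degraded with the help of KEAP1. Oxidants and electrophiles modify KEAP1, after which NRF2 enters the nucleus, pairs with small MAF proteins and binds antioxidant response elements near its target genes. Its known targets include genes for glutathione synthesis, for the thioredoxin system and for the detoxification of quinones and heme. In muscle, contraction and mitochondrial respiration produce superoxide and hydrogen peroxide, which are removed by superoxide dismutases, catalase and peroxidases. NRF2 itself is controlled mainly at the protein level, which RNA counts do not measure.

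Since antioxidant response elements link NRF2 to its targets, the RefSeq promoters of the genes were searched on both strands. The promoters are of build GRCm38.p6 and run from 250 bases before to 50 bases after the start of the transcript. The sequences searched were TGACNNNGC, a form of the core of these elements, and TGACTCA, the binding sequence of AP-1. Other forms of the core were not searched. Promoters were found for 8 of the 10 genes, with 3 for Txnrd1, of which 1 held the core. The core was in a promoter of 4 of these 8 genes, Nfe2l2, Gclm, Txnrd1 and Srxn1, and in 13.99% of 27025 genes of the table (12.4% of 32851 promoters). The AP-1 sequence was in the promoter of 1 of the 8 genes, Srxn1, which held 2 matches at 102 and 45 bases before the start, and in 5.95% of all genes. No match overlapped another in the 4 promoters shown here, which are those with the core. They are printed 5′ to 3′ on the strand of the gene, with the matches to either sequence in capitals. A match describes the letters of the window and is not a binding site measured in this muscle.

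Nfe2l2 (chr2:75704614-75704913, minus strand, core 240 bases before the start): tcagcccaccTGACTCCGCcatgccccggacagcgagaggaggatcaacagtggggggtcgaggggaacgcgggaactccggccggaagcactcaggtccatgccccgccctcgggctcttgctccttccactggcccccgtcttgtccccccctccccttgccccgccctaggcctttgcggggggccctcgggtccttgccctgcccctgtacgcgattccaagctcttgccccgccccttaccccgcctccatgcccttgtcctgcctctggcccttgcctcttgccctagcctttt

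Gclm (chr3:122245307-122245606, plus strand, core on the opposite strand 134 bases before the start): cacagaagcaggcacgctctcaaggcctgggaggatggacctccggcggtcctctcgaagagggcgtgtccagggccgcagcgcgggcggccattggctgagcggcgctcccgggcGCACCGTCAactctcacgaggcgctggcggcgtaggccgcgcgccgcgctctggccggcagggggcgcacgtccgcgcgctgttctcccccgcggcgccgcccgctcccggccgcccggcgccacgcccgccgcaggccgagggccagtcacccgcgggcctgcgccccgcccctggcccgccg

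Txnrd1 (chr10:82858956-82859255, plus strand, core on the opposite strand 92 bases before the start): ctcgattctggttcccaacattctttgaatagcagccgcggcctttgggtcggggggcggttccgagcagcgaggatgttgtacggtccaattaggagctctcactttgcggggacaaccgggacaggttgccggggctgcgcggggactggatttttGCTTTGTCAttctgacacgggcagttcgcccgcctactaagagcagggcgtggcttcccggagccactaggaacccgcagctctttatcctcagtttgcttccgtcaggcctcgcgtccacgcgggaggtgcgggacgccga

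Srxn1 (chr2:152105274-152105573, plus strand, core on the opposite strand 28 bases after the start): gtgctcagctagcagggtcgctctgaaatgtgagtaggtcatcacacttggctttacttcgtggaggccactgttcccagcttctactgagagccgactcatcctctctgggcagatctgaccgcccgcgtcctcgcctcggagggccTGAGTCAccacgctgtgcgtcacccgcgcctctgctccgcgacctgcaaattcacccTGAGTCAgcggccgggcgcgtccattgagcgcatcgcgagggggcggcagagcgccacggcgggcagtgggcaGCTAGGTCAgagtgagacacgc

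The 10 genes covered a wide range of levels in muscle. Sod2 was highest with 70.0 ± 3.75 FPKM (SD, n = 16 libraries of 4 groups) and was closely followed by Gpx1 with 69.7 ± 6.55 FPKM, so that the order of these 2 genes is within their spread. Cat followed with 49.4 ± 5.76 FPKM, Nfe2l2 with 24.1 ± 2.82 FPKM and Txnrd1 with 22.5 ± 2.86 FPKM. Srxn1 had 9.35 ± 1.65 FPKM, Gclm 8.69 ± 1.22 FPKM, Hmox1 6.45 ± 1.23 FPKM, Nqo1 6.38 ± 0.706 FPKM and Gclc 4.56 ± 0.695 FPKM. Among neighbours in this order, Nfe2l2 and Txnrd1, Srxn1 and Gclm, and Hmox1 and Nqo1 also differed by less than their SD. Sod2 was above 95.7% of the tested genes in mean FPKM and Gclc was above 59.98%. Hmox1 varied most, with an SD of 19.1% of the mean and a highest library at 2.00 times the lowest, and Sod2 varied least, with an SD of 5.35% of the mean.

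**Figure D1:**
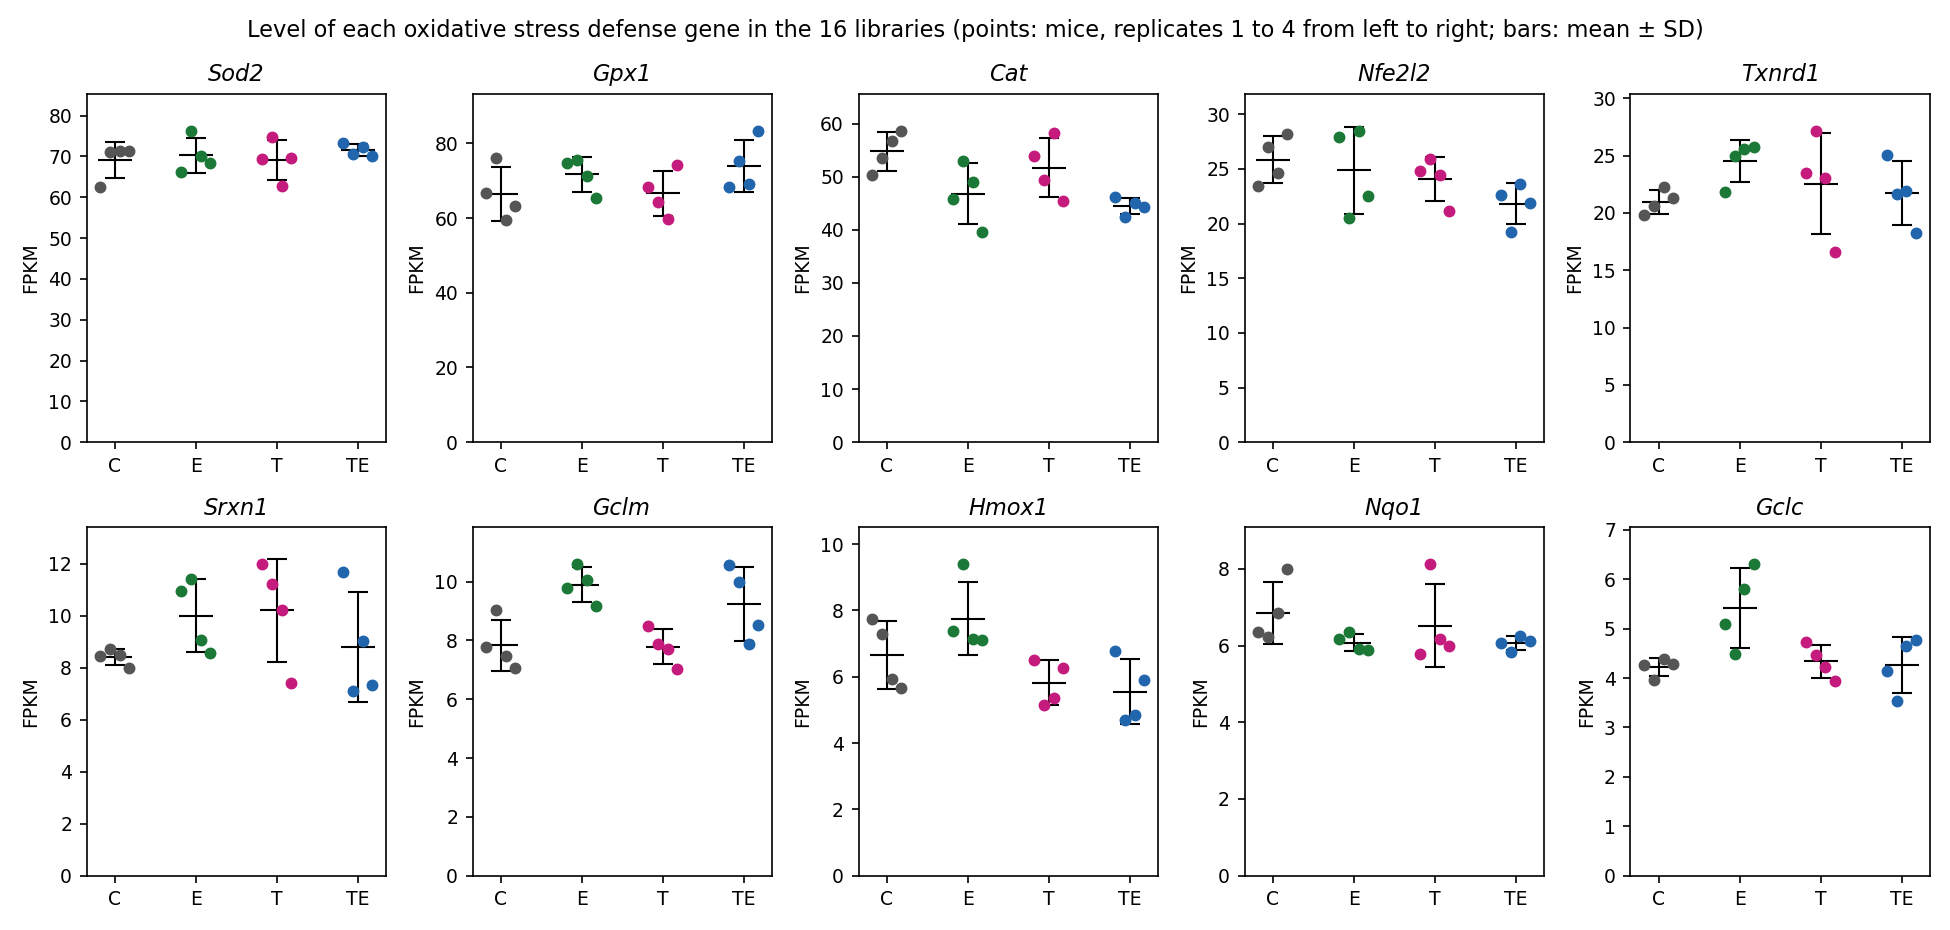
FPKM of each gene (y axis, from 0) in the C, E, T and TE groups (x axis), with a point for each of 4 mice per group and bars for the mean and SD. The 4 Gclc and the 4 Gclm values of E lie above all C values, and the 4 Hmox1 values of TE lie below all E values, but on TMM-scaled CPM the E and C values of Gclc overlap. Of all tested genes, 6.28% lie above C in E and 5.56% lie below E in TE without overlap in FPKM.

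Differences between groups were tested with edgeR's quasi-likelihood test over all 14749 genes, with Benjamini-Hochberg adjustment, and a gene was called at an adjusted p under 0.05. The contrasts were the 2 of tumor (T vs C and TE vs E), the 2 of training (E vs C and TE vs T), the main effects of tumor and training over all 4 groups, and their interaction. None of the 10 genes was called in any of these 7 contrasts. An unadjusted p under 0.05 was found for 13 of the 70 values. Per contrast, 5.88% (TE vs T) to 14.2% (T vs C, E vs C and the tumor main effect) of all tested genes had one. The main effects and the interaction are built from the same group values as the other contrasts, so the 70 values are not separate results. The lowest adjusted p among the 70 values was 0.177. Changes are given below as log2 fold changes with their standard error (SE), and levels as FPKM.

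Nfe2l2 (chr2:75504739-75534985, minus strand, 5 exons, in GRCm39 as all gene positions below) had 23.4, 27.0, 24.6 and 28.2 FPKM in C and 27.9, 20.5, 28.5 and 22.5 FPKM in E. In tumor-bearing mice it had 24.8, 25.9, 24.4 and 21.2 FPKM in T and 22.6, 19.2, 23.6 and 21.8 FPKM in TE. The 4 groups overlapped, and E was the most spread, with 2 libraries near the top and 2 near the bottom of all 16. The log2 fold change was -0.07 (SE 0.099, adjusted p = 0.789 by edgeR) in T vs C and -0.16 (SE 0.099, adjusted p = 0.896) in TE vs T. When 1 library was left out these ran from -0.11 (without the second T library) to -0.02 (without the fourth T library) and from -0.21 (without the fourth T library) to -0.10 (without the second TE library). The training main effect was -0.13 (95% interval -0.27 to 0.02, adjusted p = 0.536 by edgeR), so that a change of the RNA of NRF2 was not detected.

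Gclc (chr9:77661797-77701770, plus strand, 16 exons) encodes the catalytic subunit of glutamate-cysteine ligase, the rate-limiting enzyme of glutathione synthesis. It had 4.27, 3.96, 4.38 and 4.28 FPKM in C and 5.09, 4.48, 5.80 and 6.30 FPKM in E. The E libraries all lay above the C libraries, and the lowest E value was close to the highest C value. On TMM-scaled CPM, the scale of the test, the groups overlapped, with 15.54 CPM in the first C and 15.49 CPM in the second E library. In T it had 4.72, 4.47, 4.23 and 3.94 FPKM and in TE 4.13, 3.53, 4.64 and 4.76 FPKM, which overlapped each other and C. In E vs C the log2 fold change of Gclc was 0.32 (SE 0.11, 24.95% higher, unadjusted p = 0.00968, adjusted p = 0.216 by edgeR), which did not pass the test. The difference ranged from 0.23 to 0.40 when each library was left out in turn. In TE vs E it was -0.30 (SE 0.11, adjusted p = 0.403 by edgeR) and in TE vs T -0.04 (SE 0.111, adjusted p = 0.988). The interaction of tumor and training was -0.36 (SE 0.156, unadjusted p = 0.0328, adjusted p = 0.523 by edgeR), so that a difference of the training effect between mice with and without tumor did not pass the test.

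Gclm (chr3:122039126-122065061, plus strand, 7 exons) encodes the modifier subunit of the same ligase, which makes the catalytic subunit more efficient. It had 7.78, 9.04, 7.46 and 7.05 FPKM in C and 9.78, 10.6, 10.1 and 9.16 FPKM in E. As for Gclc, each E library lay above each C library, by a narrow margin between the second C and the fourth E library. In T it had 8.49, 7.87, 7.72 and 7.04 FPKM and in TE 10.6, 9.98, 7.87 and 8.53 FPKM, with 3 of the 4 TE libraries above all T libraries and the third TE library within the T range. On TMM-scaled CPM only the first and second TE library of Gclm lay above all T libraries. Gclm had a log2 fold change of 0.30 (SE 0.102, 23.1% higher, unadjusted p = 0.00889, adjusted p = 0.214 by edgeR) in E vs C and of 0.23 (SE 0.102, 17.3% higher, unadjusted p = 0.0368, adjusted p = 0.843) in TE vs T. These 2 comparisons share no mice. The training main effect was 0.27 (95% interval 0.11 to 0.42, unadjusted p = 0.0018, adjusted p = 0.229 by edgeR), the interaction was -0.07 (SE 0.144, adjusted p = 0.907), and T vs C was 0.02 (SE 0.102, adjusted p = 0.961). Exons of Gclm overlap an antisense RNA gene, Gm17494, over 10.9% of their length and a pseudogene on the same strand, Gm6061, over 6.18%. The strand setting of the counting is not given in the sources used here, so reads of the antisense gene cannot be told apart from those of Gclm.

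Marker genes of other cell types were also compared between E and C, and 0 of those given here were called. All 11 adipocyte genes had a positive log2 fold change in E vs C, 5 of them with an unadjusted p under 0.05 against 14.2% of all genes, and their summed level was 684 to 815 CPM in C, 755 to 1160 CPM in E, 773 to 1231 CPM in T and 798 to 1059 CPM in TE. Of 6 endothelial genes, 5 had a positive and 1 a negative value, 2 of the 5 with an unadjusted p under 0.05, with sums of 521 to 659 CPM in C and 655 to 713 CPM in E. The sums of both lists overlapped between E and C. Negative values were found for 11 of 13 lymphocyte and lymph node genes (median log2 fold change -0.45) and for 9 of 12 skeletal muscle genes (median -0.08), and positive values for 9 of 11 macrophage genes (median 0.22) and 7 of 10 neutrophil genes (median 0.40). The part of these cells in the E and C values of Gclc and Gclm was not tested.

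Txnrd1 (chr10:82669785-82733546, plus strand, 14 exons) encodes the cytosolic thioredoxin reductase, which uses NADPH to keep thioredoxin reduced. It had 19.8, 20.6, 22.2 and 21.3 FPKM in C, 21.8, 24.99, 25.6 and 25.8 FPKM in E, 23.4, 27.2, 23.0 and 16.6 FPKM in T, and 25.03, 21.7, 21.9 and 18.3 FPKM in TE. In T the second library was the highest and the fourth the lowest of all 16, so that T enclosed the range of the other groups. The log2 fold change was 0.13 (SE 0.120, adjusted p = 0.658 by edgeR) in T vs C, 0.19 (SE 0.120, adjusted p = 0.493) in E vs C and -0.07 (SE 0.120, adjusted p = 0.977) in TE vs T. The T vs C value was 0.03 without the second T library and 0.25 without the fourth.

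Srxn1 (chr2:151947436-151957687, plus strand, 2 exons) encodes sulfiredoxin, which repairs over-oxidized peroxiredoxins. It had 8.44, 8.73, 8.50 and 7.996 FPKM in C, 10.9, 11.4, 9.05 and 8.56 FPKM in E, 11.98, 11.2, 10.2 and 7.42 FPKM in T, and 11.7, 7.11, 9.01 and 7.32 FPKM in TE. C was narrow, with a SD of 0.307 FPKM, while T and TE each spanned more than 4 FPKM. In T vs C, 3 of the 4 T libraries lay above all C libraries and the fourth lay below them. Srxn1 had the largest log2 fold change of the 10 genes in T vs C, 0.31 (SE 0.157, 95% interval -0.02 to 0.64, unadjusted p = 0.0674, adjusted p = 0.397 by edgeR), which was 0.20 without the first T library and 0.43 without the fourth. In TE vs T it was -0.24 (SE 0.157, adjusted p = 0.899 by edgeR), which was -0.13 without the first T library and -0.39 without the first TE library, and the interaction was -0.45 (SE 0.223, 95% interval -0.92 to 0.02, adjusted p = 0.559).

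The fourth T library was the lowest of its group for Nfe2l2, Gclc, Gclm, Txnrd1, Srxn1 and Cat. Its neutrophil and macrophage sums, 55.6 and 226 CPM, were the highest of the 16 libraries, and their part in these values was not tested.

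Nqo1 (chr8:108113835-108129934, minus strand, 6 exons) encodes a reductase that turns quinones into hydroquinones without a radical intermediate. It had 6.36, 6.24, 6.85 and 8.01 FPKM in C, 6.18, 6.36, 5.91 and 5.88 FPKM in E, 5.79, 8.12, 6.17 and 5.98 FPKM in T, and 6.07, 5.83, 6.26 and 6.12 FPKM in TE. The untrained groups held 1 high library each, and the 8 trained libraries stayed between 5.83 and 6.36 FPKM. In E vs C the log2 fold change was -0.21 (SE 0.099, unadjusted p = 0.0479, adjusted p = 0.349 by edgeR). Without the fourth C library this difference was -0.13. The training main effect was -0.16 (SE 0.070, unadjusted p = 0.0318, adjusted p = 0.417 by edgeR) and T vs C was -0.05 (SE 0.099, adjusted p = 0.869). Without the second T library the training main effect was -0.10.

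Hmox1 (chr8:75820241-75827217, plus strand, 5 exons) encodes heme oxygenase 1, the inducible enzyme that breaks down heme into biliverdin, iron and carbon monoxide and that is also abundant in macrophages that clear red cells. It had 7.75, 7.30, 5.93 and 5.67 FPKM in C and 7.37, 9.39, 7.15 and 7.12 FPKM in E. In tumor-bearing mice it had 6.52, 5.16, 5.35 and 6.27 FPKM in T and 6.77, 4.69, 4.84 and 5.90 FPKM in TE. Each TE library was below each E library, while T and C overlapped. Hmox1 had a log2 fold change of -0.44 (SE 0.145, 26.2% lower, unadjusted p = 0.00779, adjusted p = 0.314 by edgeR) in TE vs E and of -0.17 (SE 0.146, adjusted p = 0.646) in T vs C, which was -0.07 without the first C library. The tumor main effect on Hmox1 was -0.30 (95% interval -0.52 to -0.09, unadjusted p = 0.00904, adjusted p = 0.177 by edgeR), the lowest adjusted p of the 10 genes in any contrast, and it ranged from -0.35 to -0.25 when each library was left out. All 11 tested macrophage genes and all 7 tested erythroid genes had positive log2 fold changes in T vs C, against 49.7% of all genes. Among them 0 macrophage and 4 erythroid genes were called, against 0.678% of all genes. In TE vs E, 9 of 11 macrophage and 7 of 7 erythroid genes had positive values, against 50.8%. There 0 and 5 were called, against 0.231%. Positive values were also found there for 10 of 10 neutrophil genes and negative ones for 4 of 6 endothelial genes, with 0 called. The part of these cells in the Hmox1 values was not tested. Macrophage sums were 76.4 to 147 CPM in C, 83.6 to 152 CPM in E, 103 to 226 CPM in T and 98.7 to 189 CPM in TE, so that they overlapped between all groups.

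Sod2 (chr17:13224095-13259591, plus strand, 5 exons) encodes the manganese superoxide dismutase of the mitochondrial matrix, which turns superoxide into hydrogen peroxide. Its group means were 69.0 ± 4.39 FPKM in C, 70.3 ± 4.32 FPKM in E, 69.1 ± 4.97 FPKM in T and 71.5 ± 1.41 FPKM in TE (SD, n = 4 each), and all groups overlapped. The log2 fold change of Sod2 lay between -0.01 and 0.07 in the 4 comparisons of 2 groups, with SE of 0.068, and in T vs C the 95% interval ran from 0.93-fold to 1.13-fold (adjusted p = 0.881 by edgeR). For Sod2 these libraries therefore bounded a change more tightly than for the other 9 genes.

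Cat (chr2:103284194-103316185, minus strand, 13 exons) encodes catalase, which breaks down hydrogen peroxide, mostly in peroxisomes. It had 50.3, 53.6, 56.8 and 58.6 FPKM in C and 45.7, 52.9, 49.0 and 39.6 FPKM in E. In tumor-bearing mice it had 53.8, 49.3, 58.2 and 45.4 FPKM in T and 46.1, 42.5, 45.1 and 44.2 FPKM in TE. Of the 4 E libraries, 3 were below all C libraries, and 3 of the 4 TE libraries were below all T libraries, with 1 library in each case within the range of the untrained group. On TMM-scaled CPM all 4 E libraries of Cat lay below all C libraries, by 133.10 against 133.25 CPM at the nearest, and in TE vs T the library within the range was the third instead of the first TE library. Cat had a log2 fold change of -0.26 (SE 0.085, 16.8% lower, unadjusted p = 0.0061, adjusted p = 0.197 by edgeR) in E vs C and of -0.23 (SE 0.085, 14.8% lower, unadjusted p = 0.0139, adjusted p = 0.758) in TE vs T. The training main effect on Cat was -0.25 (SE 0.060, 95% interval -0.37 to -0.12), with the smallest unadjusted p of all 70 values, 0.000662, and an adjusted p of 0.184 by edgeR. With DESeq2 in place of edgeR the same contrast gave -0.25 with an adjusted p of 0.0224, the only call of any of the 10 genes under any setting tried. In this contrast DESeq2 called 90 genes in all, where edgeR called 1 with all libraries and 104 without the third T library. The interaction was 0.03 (SE 0.120, adjusted p = 0.953 by edgeR) and the tumor main effect was -0.04 (SE 0.060, adjusted p = 0.819).

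Gpx1 (chr9:108216102-108217546, plus strand, 2 exons) encodes the selenium-dependent glutathione peroxidase of the cytosol and mitochondria, which reduces hydrogen peroxide at the expense of glutathione. It had 66.4 ± 7.13 FPKM in C, 71.6 ± 4.61 FPKM in E, 66.6 ± 6.06 FPKM in T and 74.0 ± 7.01 FPKM in TE (SD, n = 4 each). All groups overlapped, and the fourth TE library was highest with 83.3 FPKM. The training main effect on Gpx1 was 0.10 (SE 0.064, adjusted p = 0.581 by edgeR) and T vs C was 0.03 (SE 0.090, adjusted p = 0.911). In the annotation used here, 85.3% of the exon length of Gpx1 is overlapped by an antisense RNA gene, Gm57050, so that its level is uncertain where the counting ignored strand.

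The T vs C comparison asked whether a growing CT26 tumor changed these genes in muscle, and 0 of the 10 were called, where 0.678% of all tested genes (100 genes) were. At an unadjusted p under 0.05 there were also 0 of the 10 genes, against 14.2% of all genes. Without the fourth T library 2 of the 10 had such a value. Calls among all genes ran from 16 (without the fourth C library) to 255 (without the second T library) when 1 library was left out. Log2 fold changes ran from -0.17 (Hmox1) to 0.31 (Srxn1), 6 of 10 positive against 49.7% of all tested genes, with a median of 0.025 against -0.001. The widest 95% interval reached 1.56-fold, for Srxn1, so that a doubling lay outside the interval of each of the 10 genes. On simulated counts of this comparison the same test called 42 of 100 genes changed by 0.5 on the log2 scale and 66 of 100 changed by 1. The changed genes were drawn at random from all 14749 tested genes, so these are not the rates for the 10 genes.

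The TE vs T comparison asked what training did in tumor-bearing mice, and 0 of the 10 genes were called, as 0% of all genes were, by edgeR. DESeq2 also called 0 of the 10 genes in this comparison, and 7 genes in all. At an unadjusted p under 0.05 there were 2 of the 10, Cat lower and Gclm higher, against 5.88% of all genes (867 genes). The other 8 had log2 fold changes from -0.24 (Srxn1) to 0.13 (Gpx1). Without the third T library 0 of the 10 and 1068 of all genes had an unadjusted p under 0.05. Of the 10 values, 3 were positive, against 50.5% of all tested genes, with a median of -0.079 against 0.001, and the widest interval reached a 1.48-fold change, for Srxn1.

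The E vs C comparison asked what training did in tumor-free mice, and 0 of the 10 genes were called, against 0.0881% of all genes (13 genes). At an unadjusted p under 0.05 there were 4 of the 10, Gclc and Gclm higher and Cat and Nqo1 lower, where 14.2% of all genes had such a value. This count was 2 without the fourth E library and 6 with only the groups compared. Calls among all genes ran from 0 (as without the first C library) to 35 (without the first E library) and were 183 with only the groups compared. Groups that did not overlap, with E above C, were found for 2 of the 10 genes, Gclc and Gclm, and for 6.28% of all tested genes, on FPKM. On TMM-scaled CPM this held for Gclm and 5.06% of all tested genes, and E lay below C without overlap for Cat and 4.02% of all tested genes. Of the 10 log2 fold changes 6 were positive, against 50.6% of all genes, the median was 0.126 against 0.003, and the widest interval reached 1.47-fold, for Gclc. E vs C and TE vs T compare training in separate mice, and 5 of the 10 genes had the same sign in both, against 51.6% of all tested genes. These 5 were Nfe2l2, Nqo1 and Cat, lower in trained mice, and Gclm and Gpx1, higher in trained mice.

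The TE vs E comparison asked what the tumor did in trained mice, and 0 of the 10 genes were called, against 0.231% of all genes (34 genes). Hmox1 and Gclc had an unadjusted p under 0.05, both lower in TE, where 9.23% of all genes had such a value and 5.53% had one with a lower level in TE. Hmox1 was the 1 gene of the 10 whose groups did not overlap, which was the case with TE below E for 5.56% of all tested genes. Of the 10 log2 fold changes 3 were positive, against 50.8% of all genes, and they ran from -0.44 (Hmox1) to 0.09 (Gpx1). T vs C and TE vs E compare tumor in separate mice, and 5 of the 10 genes had the same sign in both, against 53.4% of all tested genes.

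For the tumor main effect 0 of the 10 genes were called, against 1.36% of all genes, and 1, Hmox1, had an unadjusted p under 0.05, against 14.2%. For the training main effect 0 were called by edgeR, against 0.00678% (1 gene), and 3, Cat, Gclm and Nqo1, had an unadjusted p under 0.05, against 10.8%. Without the third T library edgeR called 104 of all genes for the training main effect. The widest 95% interval reached 1.43-fold for the tumor main effect (Hmox1) and 1.34-fold for the training main effect (Gclm). For the interaction 0 of the 10 genes and 0% of all genes were called, and 1 of the 10, Gclc, had an unadjusted p under 0.05, against 9.21% of all genes (1358 genes). DESeq2 called 0 of the 10 genes for the tumor main effect and the interaction, and 1, Cat, for the training main effect (adjusted p = 0.0224).

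**Figure D2:**
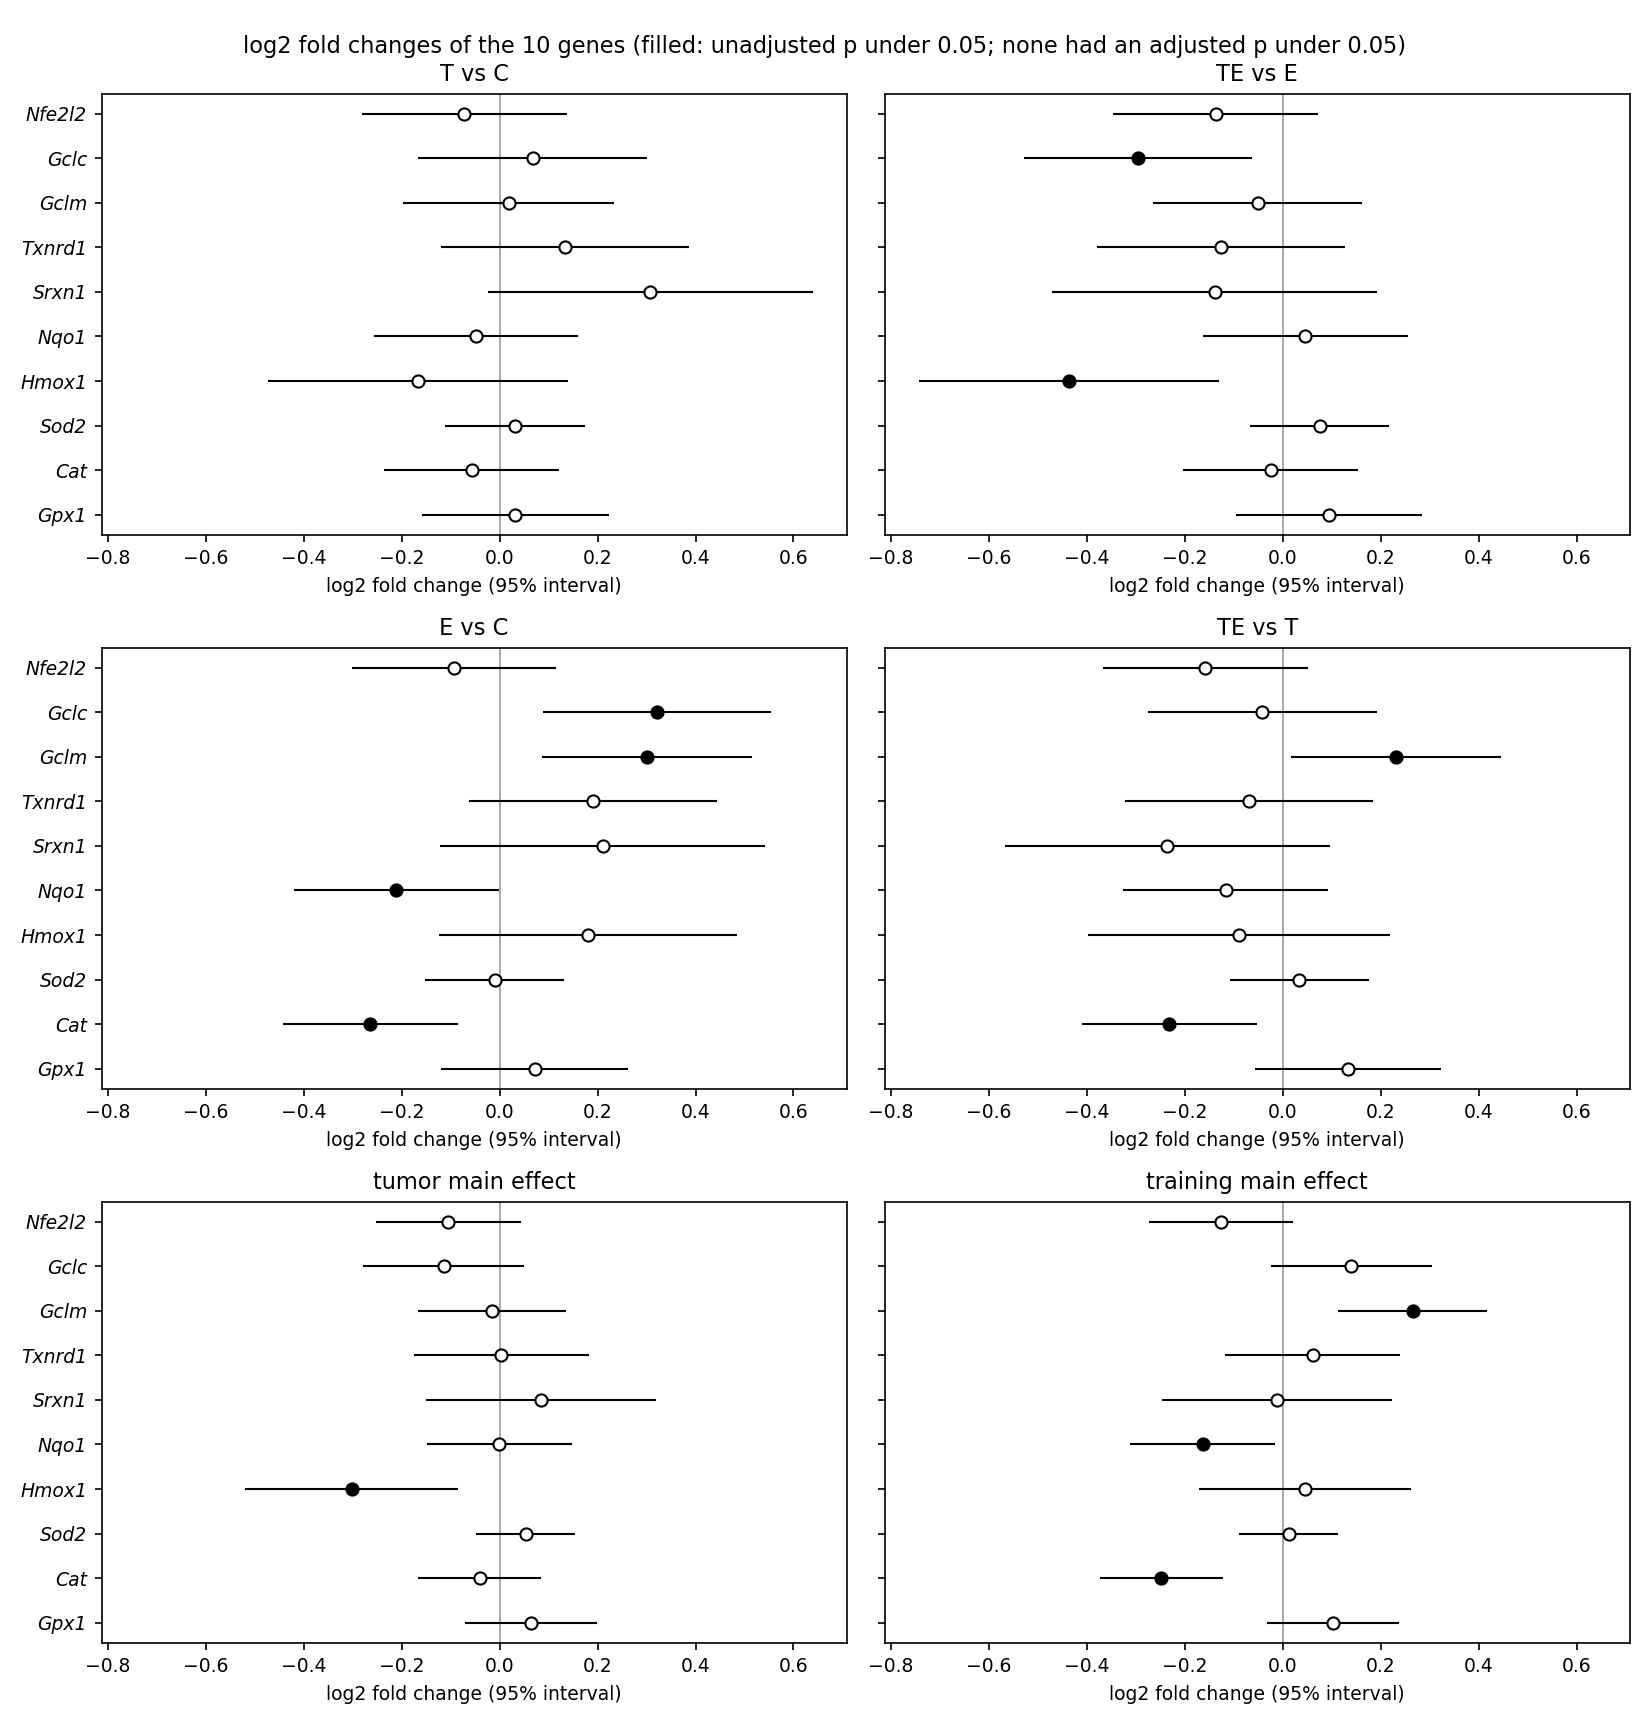
Log2 fold change (x axis) with its 95% interval for each of the 10 genes (y axis), with 1 panel per contrast. Filled points had an unadjusted p under 0.05, and no point had an adjusted p under 0.05. Cat lies left of 0 and Gclm right of 0 in both comparisons of trained with untrained mice, and Hmox1 lies left of 0 in both comparisons of mice with and without tumor.

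Other genes of redox balance were described from 10 lists with 124 genes, of which 116 were tested. Of these lists 9 hold genes of antioxidant defense, detoxification and their regulation, and 1 holds 13 oxidant-producing enzymes (10 tested), Nos2 among them. In T vs C, 2 of the 116 were called, both lower, against 0.678% of all genes, and 22 had an unadjusted p under 0.05, 14 higher and 8 lower, against 14.2% of all genes. Gstt1, a theta-class glutathione transferase, had 13.8 ± 0.865 FPKM in C and 8.07 ± 2.11 FPKM in T (SD, n = 4). Each T library lay below each C library, which was also the case for 4.21% of all tested genes. Gstt1 fell by 0.75 on the log2 scale (SE 0.144, adjusted p = 0.0232 by edgeR). In TE it had 10.7 ± 0.600 FPKM, and the TE vs T difference of 0.40 (SE 0.145, adjusted p = 0.758 by edgeR) did not pass the test and was 0.26 without the first T library. Nos2, the inducible nitric oxide synthase, which produces an oxidant and is no defense gene, was low, with 2.25 ± 0.657 FPKM in C and 0.921 ± 0.370 FPKM in T, again without overlap, and fell by 1.25 on the log2 scale (SE 0.279, adjusted p = 0.0476 by edgeR).

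Both calls in T vs C depended on single libraries. With 1 library left out, the log2 fold change ran from -0.91 to -0.61 for Gstt1 and from -1.46 to -1.03 for Nos2. Gstt1 stayed called in 5 of the 8 fits that left out a library, and its adjusted p by edgeR was 0.0618 without the third C library, 0.102 without the fourth C library and 0.0711 without the third T library. Nos2 stayed called in 3 of 8 such fits, with an adjusted p by edgeR of up to 0.158 in the fit without the fourth C library, and was also not called without the second C library (0.0719), the third C library (0.122), the first T library (0.0991) or the third T library (0.119). With only C and T libraries in the fit 0 of the 116 genes were called, and with DESeq2 11 were, where DESeq2 called 432 genes in all and edgeR called 100. In the same comparison 5 of 10 tested neutrophil genes and 4 of 7 erythroid genes were called higher and 1 of 6 endothelial genes lower by edgeR, and 13 of 13 lymphocyte and lymph node genes had negative values (median -3.10, 0 called). Their part in the values of Gstt1 and Nos2 was not tested.

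For the tumor main effect 4 of the 116 genes were called, against 1.36% of all genes. Nos2 (fell by 1.07, SE 0.197, adjusted p = 0.0092 by edgeR), Gstt1 (fell by 0.46, SE 0.101, adjusted p = 0.028) and Ephx1, the microsomal epoxide hydrolase (fell by 0.44, SE 0.105, adjusted p = 0.0457), were lower in mice given CT26 cells. Slc3a2, the heavy chain shared by the cystine-glutamate exchanger and other amino acid transporters, rose by 0.30 (SE 0.063, adjusted p = 0.0227 by edgeR), with 3.71 ± 0.227 FPKM in C, 3.84 ± 0.214 FPKM in E, 4.76 ± 0.626 FPKM in T and 4.29 ± 0.452 FPKM in TE. When each of the 16 libraries was left out, Nos2 was called in 16 fits, Slc3a2 in 14, Gstt1 in 9 and Ephx1 in 3. The highest adjusted p in these fits was 0.0561 for Slc3a2, 0.0714 for Gstt1 and 0.1 for Ephx1. Log2 fold changes in these fits ran from 0.26 to 0.32 for Slc3a2 and from -0.54 to -0.39 for Gstt1. They ran from -0.52 to -0.37 for Ephx1 and from -1.17 to -0.96 for Nos2. In the annotation, 15.9% of the exon length of Slc3a2 is overlapped by an antisense RNA gene, Snhg1. Among cell type markers, 6 of 10 tested neutrophil and 5 of 7 erythroid genes were called higher for the tumor main effect. Of 6 endothelial genes 2 were called lower. The part of these cells in the values of the 4 called list genes was not tested.

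In T vs C the next smallest p-values of the lists belonged to Slc3a2 (0.39, SE 0.089, adjusted p = 0.057 by edgeR), to Abcc4, an exporter of drugs and glutathione conjugates (0.37, SE 0.088, adjusted p = 0.0635), and to Gsta4, a transferase for lipid peroxidation products (-0.47, SE 0.113, adjusted p = 0.0658). Of 10 tested regulators and partners of NRF2, 0 were called in T vs C by edgeR and 5 had an unadjusted p under 0.05, all higher in T, against 14.2% of all genes. These were Mafg, Maff, Bach1, Nfe2l1 and Mafk, of which Maff, a small MAF protein, had the largest value with 0.84 (SE 0.248, adjusted p = 0.124 by edgeR), and Bach1 encodes a repressor that competes with NRF2 for the same elements. These 5 were named after their values were seen. DESeq2 called Maff (0.84, adjusted p = 0.0352) and Mafg (0.41, adjusted p = 0.0355), and edgeR called Mafg without the fourth T library (0.51, adjusted p = 0.035). In E vs C, which shares the C libraries, 3 of the 10 had an unadjusted p under 0.05, all higher in E, again against 14.2% of all genes, with 0 called by edgeR. These were Bach1 (0.41, SE 0.11, adjusted p = 0.146 by edgeR, and called by DESeq2 with 0.0362), Mafk (0.27) and Mafg (0.25), which had 5.54 to 5.80 FPKM in C and 6.55 to 7.06 FPKM in E. On FPKM, E lay above C without overlap for 6.28% of all tested genes.

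In TE vs T 0 of the 116 genes were called by edgeR or by DESeq2, and 10 had an unadjusted p under 0.05, 4 higher and 6 lower, against 5.88% of all genes. The smallest p-values belonged to Sesn1, a stress-induced sestrin (-0.31, SE 0.102), to Nnt, the mitochondrial transhydrogenase that makes NADPH (-0.25, SE 0.087), to Gstt1, to Idh2, the mitochondrial NADP-dependent isocitrate dehydrogenase (-0.31, SE 0.114), and to Ggct, which degrades gamma-glutamyl peptides (0.51, SE 0.189), with adjusted p-values from 0.724 to 0.77 by edgeR. Without the third T library the Sesn1 value was -0.20, and without the fourth T library that of Nnt was -0.16. Exons of Idh2 are overlapped over 29.4% of their length by Zfp710 and those of Sesn1 over 10.9% by Cep57l1, both on the opposite strand, so that reads of these genes cannot be told apart where the counting ignored strand. In E vs C 0 were called by edgeR and 24 had an unadjusted p under 0.05, 10 higher and 14 lower, against 14.2% of all genes. In E vs C 16 of 19 tested glutathione transferases had negative log2 fold changes, with a median of -0.14 against 0.003 for all genes, and 4 of the 16 had an unadjusted p under 0.05 with 0 called. Of the other 3, Gsta3, which was named after its values were seen, had 0.118 to 0.450 FPKM in C and 0.419 to 3.50 FPKM in E (2.55, SE 0.633, adjusted p = 0.126 by edgeR), and DESeq2 called it (2.56, adjusted p = 0.0033). In TE vs E, for the training main effect and for the interaction 0 of the 116 genes were called by edgeR.

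**Figure D3:**
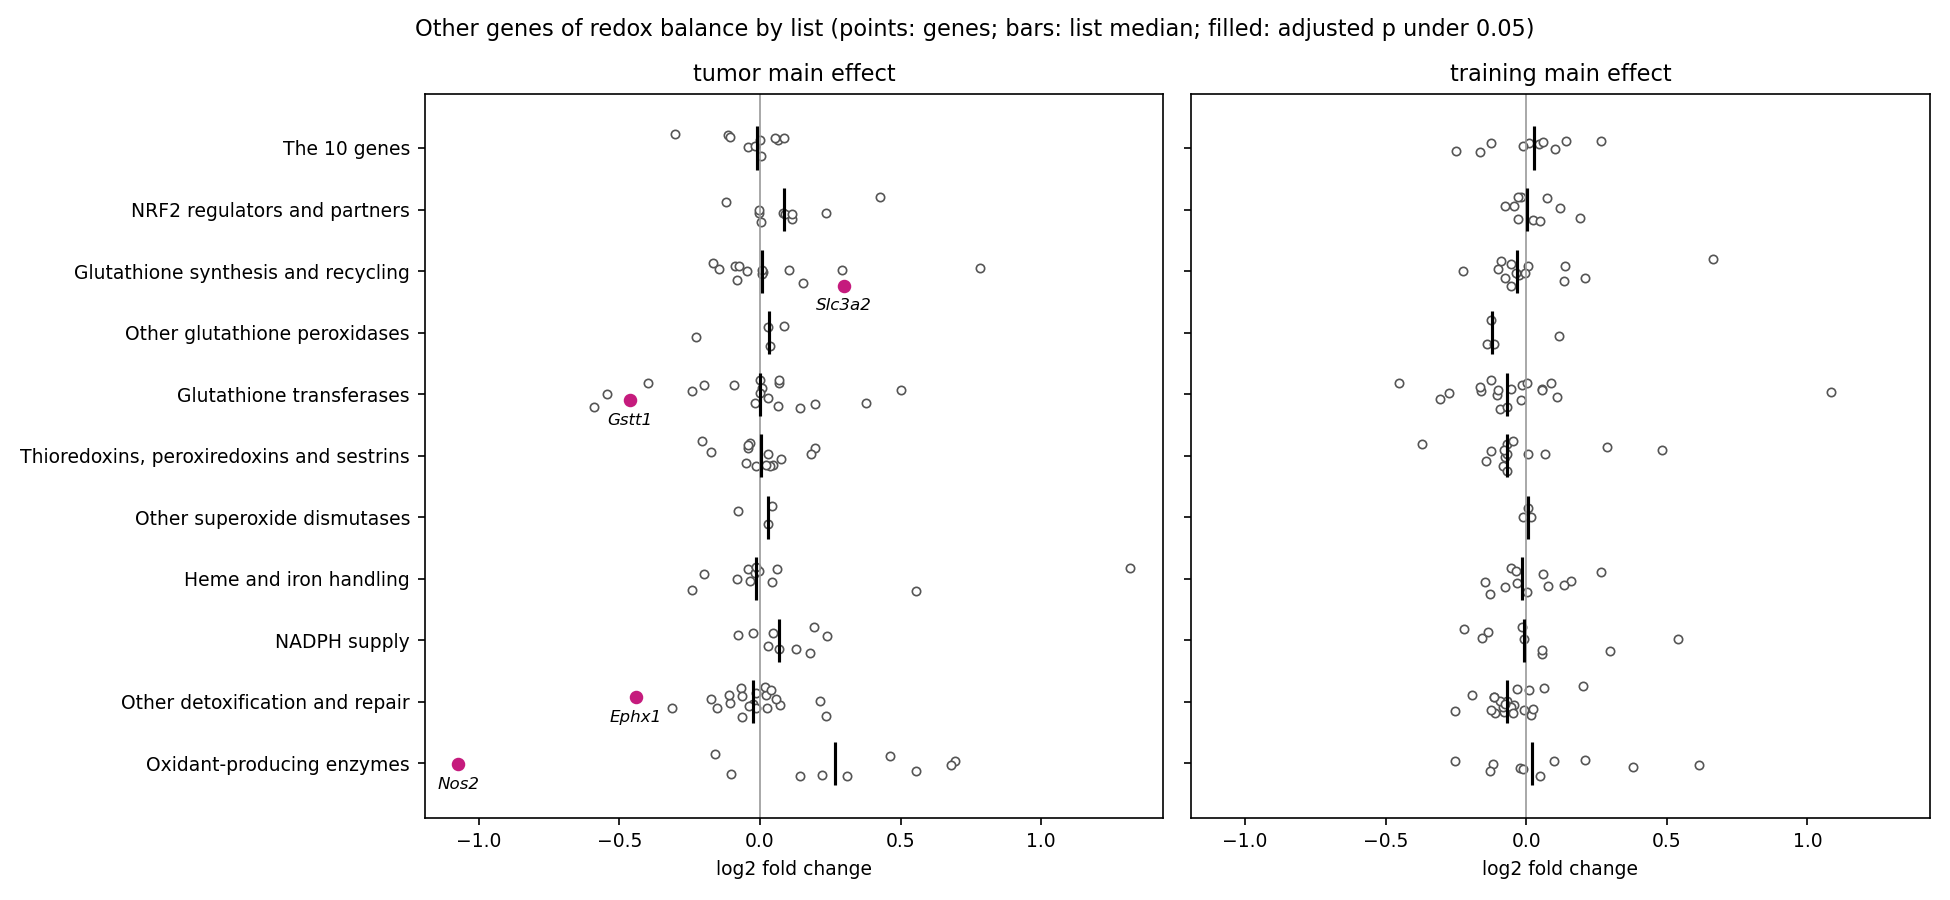
Log2 fold change (x axis) of the 10 genes and of the tested genes of 9 lists of antioxidant defense, detoxification and their regulation and 1 list of oxidant-producing enzymes, which holds Nos2 (y axis), for the tumor main effect on the left and the training main effect on the right. Points are genes, black bars are list medians, and the filled points Nos2, Gstt1, Ephx1 and Slc3a2 had an adjusted p under 0.05. On the left the points of Nos2, Gstt1 and Ephx1 lie at negative and that of Slc3a2 at positive values, and no point on the right is filled.

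Whether the 10 genes varied together between mice was described with Pearson's r of log2 CPM over the 16 libraries, for 45 pairs. Of these, 29 were positive and 16 negative, from -0.53 to 0.67, and after Benjamini-Hochberg adjustment over the 45 pairs 0 had a permutation p under 0.05, while 2 had an unadjusted p under 0.05. The pair with the highest r was Txnrd1 and Srxn1, with r = 0.67 (permutation p = 0.00426, adjusted p = 0.192) and Spearman's rho = 0.64 (permutation p = 0.00992, adjusted p = 0.223). Within groups, as deviations from the group means, r was 0.65, and without the 2 libraries farthest from the median of Txnrd1, the fourth T and the fourth TE library, it was 0.54. Nqo1 and Gclm had the lowest value, with r = -0.53 (permutation p = 0.0293, adjusted p = 0.437), rho = -0.60 (permutation p = 0.0156, adjusted p = 0.233), -0.25 within groups and -0.47 without the fourth C and the second T library. Gclc and Gclm, the subunits of 1 enzyme, had r = 0.12 over all libraries and -0.38 within groups. Nfe2l2 had r between -0.40 (Gpx1) and 0.45 (Cat) with the other 9 genes. The points share the 4 groups and carry the same batch number in the labels, so these values are a description of the libraries.

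**Figure D4:**
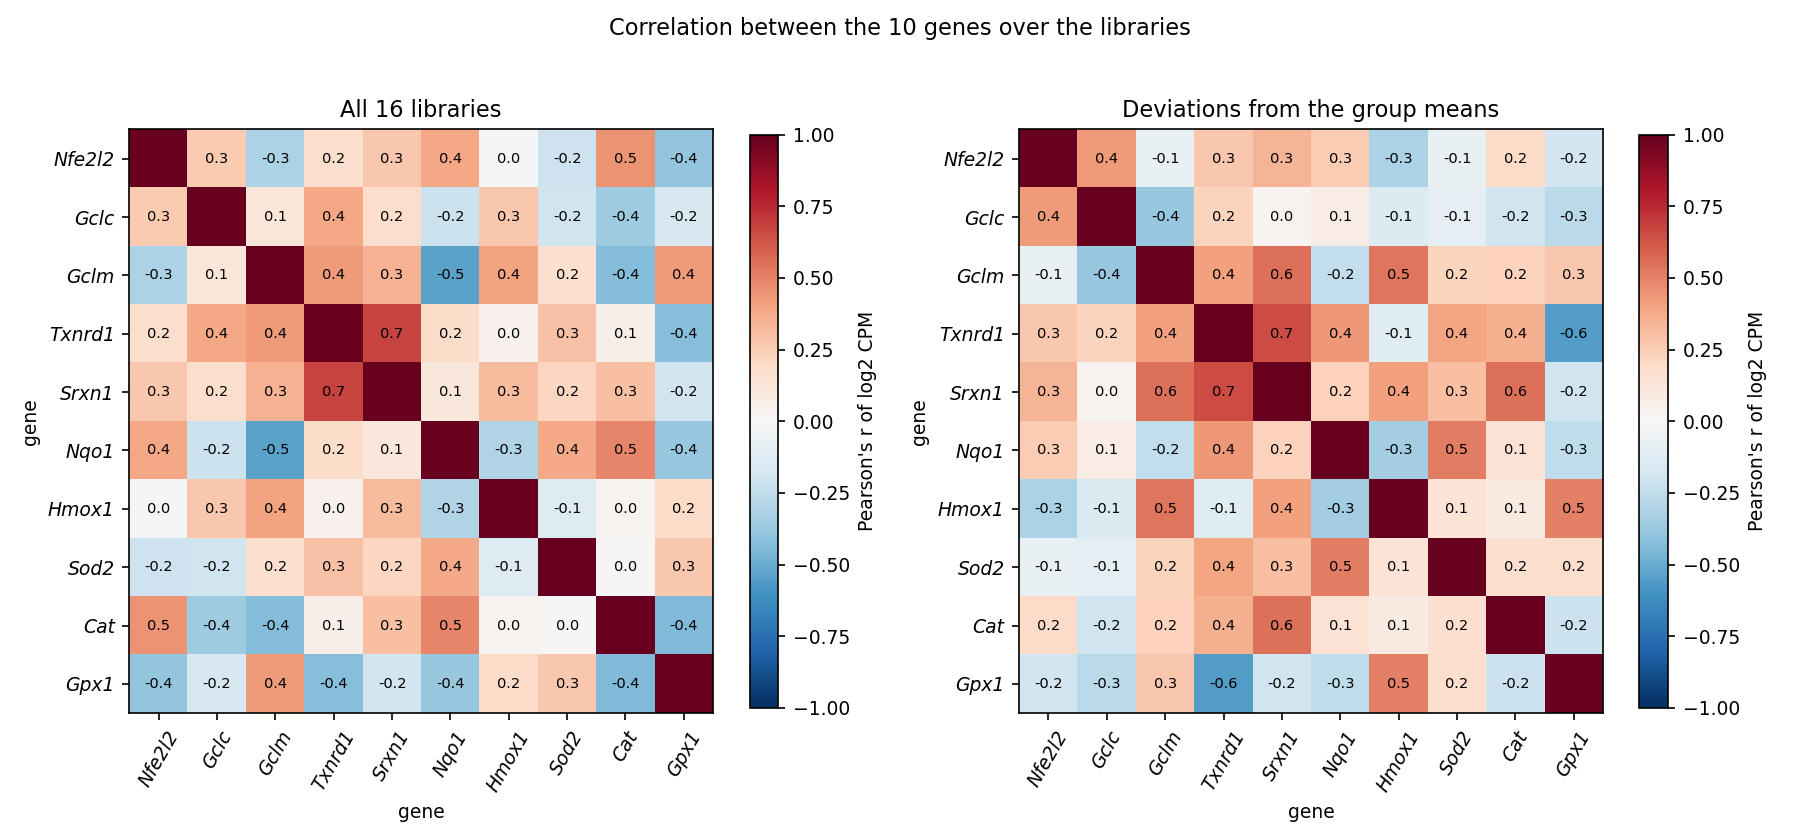
Pearson's r of log2 CPM between each pair of the 10 genes (both axes) over 16 libraries, as measured on the left and as deviations from the group means on the right, on a colour scale from -1 (blue) to 1 (red). Txnrd1 and Srxn1 keep a high value in both panels (0.67 and 0.65), while other pairs change with the removal of group means.

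Among all tested genes, the gene most like each member in its pattern over the 16 libraries was found by Pearson's r of log2 CPM, as a description without a test. For Srxn1 this was Chordc1, which encodes a cochaperone of HSP90 (r = 0.90), for Nfe2l2 it was Zfp503 (r = 0.89), and for Txnrd1 it was Usp13, which encodes a deubiquitinase (r = 0.87). For Gclm it was Sgpp1, a sphingosine-1-phosphate phosphatase (r = 0.86), for Nqo1 the flap endonuclease Fen1 (r = 0.83), for Hmox1 Fam207a (r = 0.83) and for Sod2 the mitochondrial fission gene Mtfp1 (r = 0.83). For Cat it was Cox4i2, a subunit of cytochrome c oxidase (r = 0.80), for Gpx1 the interferon-inducible Ifi204 (r = 0.80) and for Gclc Kcnip3 (r = 0.78). Each is the highest of the values over all tested genes that are not members.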

How the data were processed

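Gastrocnemius RNA of 16 mice (4 each in C, E, T and TE) was sequenced as polyA RNA, all with batch number 1 in the labels, and groups and replicate numbers come from the sample labels. Per the submitters' processing notes, fastp 0.20.1, HISAT2 2.1.0, HTSeq 0.11.2 and DESeq2 were used on GRCm39. The annotation release and strand setting are not given in the sources used here. The authors deposited counts per gene, not normalized, and FPKM, which were checked to equal these counts divided by 1 length per gene and by the library total for 11001 genes (largest relative deviation 5.2e-16). The tables held 0 columns of other samples.

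Counts were filtered with filterByExpr (14749 of 35415 genes), scaled with TMM and tested with edgeR 4.0.16 (R 4.3.3) by the quasi-likelihood test in all 16 libraries, with 1 coefficient per group. The p-values are two-sided, were corrected per contrast after Benjamini and Hochberg, and measure the spread between mice of a group. Counts may include PCR copies, since no molecular identifiers are named, so intervals do not separate them from molecules. Log2 CPM used a prior count of 2. Correlations were tested with 100000 permutations. Fold changes on FPKM were an alternative, with limma 3.58.1 on log2(FPKM + 1) and log2(FPKM + 0.1). DESeq2 1.42.0, its size factors, no filter on low counts, a filter on mean FPKM under 1, a threshold of 2-fold, each replicate left out, a robust fit, a replicate block and a fit limited to the compared groups were further alternatives. On simulated counts of T vs C over 14749 genes, the test called 42 of 100 genes changed by 0.5 on the log2 scale, 66 of 100 changed by 1, and 4 unchanged genes. The changed genes were drawn at random from all tested genes.

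The 10 genes, the gene lists and the alternatives were chosen with earlier results of these data known. Named genes were the 10 members, each list gene called in a contrast, the 5 list genes with the smallest p in T vs C and in TE vs T, and the gene most correlated with each member, and 5 regulators and partners of NRF2 (Mafg, Maff, Bach1, Nfe2l1 and Mafk) and Gsta3 were named after their values were seen. Gene positions are from the GENCODE annotation of GRCm39 and promoters from RefSeq (GRCm38.p6). Python 3.11.15 with matplotlib 3.10.9 drew the figures.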

Additional observations from a re-analysis of the deposited data

Results flagged for a closer look

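In 3 cases a value stood apart from the other 3 libraries of its group by Dixon's test. Hmox1 was 9.39 FPKM in the second E library, while the other E libraries had 7.12 to 7.37 FPKM, and without that library the TE vs E difference of Hmox1 was -0.32 on the log2 scale. Nqo1 was 8.12 FPKM in the second T library, against 5.79 to 6.17 FPKM in the other T libraries, and without it the T vs C difference was -0.17. Sod2 was 62.4 FPKM in the first C library, against 71.1 to 71.3 FPKM in the other C libraries. The test was run on 40 groups of 4 values (10 genes in 4 groups), flagged 3, and flags about 5% of groups by chance.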

How the results depend on the processing

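Under 17 alternatives for each comparison of 2 groups and 24 for each main effect and the interaction the 10 genes gave 1400 log2 fold changes, of which 1328 had the direction reported and 72 the opposite one. In 48 of 70 pairs of gene and contrast the direction held in each alternative. With DESeq2, 1 member was called for the training main effect (Cat), and no other alternative called a member in any contrast. On FPKM with limma the sign turned for Gclm in T vs C (-0.0063 with 0.1 added, -0.0059 with 1 added, with or without the filter), Nqo1 in TE vs E (-0.0024 and -0.0021) and Sod2 in E vs C (0.026 and 0.025). Leaving out a replicate gave ranges across 0 in T vs C for Gclm (-0.045 to 0.085), Gpx1 (-0.028 to 0.095), Nqo1 (-0.174 to 0.032) and Sod2 (-0.011 to 0.084), in E vs C for Sod2 (-0.057 to 0.018), in TE vs E for Cat (-0.084 to 0.049) and Gclm (-0.114 to 0.012), and in TE vs T for Gclc (-0.096 to 0.037), Nqo1 (-0.153 to 0.011), Sod2 (-0.020 to 0.078) and Txnrd1 (-0.187 to 0.037). The other reversals were in the tumor main effect for Nqo1 (10 of 24), Txnrd1 (10) and Gclm (5), in the training main effect for Srxn1 (9), Sod2 (3) and Hmox1 (2), and in the interaction for Cat (2), Nfe2l2 (2), Gpx1 (1) and Sod2 (1). TMM-scaled CPM in place of FPKM, chosen after seeing the data, changed which members were without overlap in E vs C (Gclc lost, Cat added) and in no other comparison.

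Of the 116 list genes, 2 were called in T vs C. This count was 11 with DESeq2, 4 without the filter on low counts, 1 with a 2-fold threshold, a robust fit or limma on FPKM (either pseudocount, and with the FPKM filter), 0 with only the groups compared, and 0 to 9 when a replicate was left out (0 without replicate 3 or 4 of C or replicate 3 of T, 9 without replicate 2 of T). For the tumor main effect the count was 4, and it was 7 with DESeq2, 1 with a 2-fold threshold, 2 with each limma fit, and 1 to 8 when a replicate was left out (1 without replicate 4 of C or replicate 3 of E, 8 without replicate 2 of T). In E vs C it was 0, 2 with DESeq2 and 1 with only the groups compared. The cause of these shifts was not tested. With the replicate block, 0 members were called in each contrast and 1 list gene was called in T vs C, Gstt1 (edgeR adjusted p = 0.049), while Nos2 was not (0.0819). For the tumor main effect the block lost Gstt1 (0.0571) and Ephx1 (0.0631) and added Nnt (0.0482), the robust fit lost Ephx1 (0.0619), and the limma fits lost Slc3a2 (0.0779 to 0.0961) and Ephx1 (0.0517 to 0.0677). The log2 fold changes of the lost genes were -0.47 for Gstt1 with the block and -0.44 for Ephx1 with the block and the robust fit. With limma they were 0.21 to 0.25 for Slc3a2 and -0.47 to -0.45 for Ephx1. The labels do not tie replicate numbers across groups, and same-numbered libraries deviated together with r from -0.24 to 0.21, so the block is no pairing of mice.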
